A study of Mus musculus with 12 samples.

Results

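Proteasome genes were followed in skeletal muscle RNA from obese diabetic mice given exercise, a drug, both or neither. The family was defined by name, as gene symbols that start with Psm, then a letter from a to g and a number, with an FPKM (fragments per kilobase of transcript, scaled to library depth) of at least 1 in at least 3 of 12 libraries. Of 51 rows with such names, 49 passed, among 10666 of 22390 rows of the table that passed the same filter and were tested. Psma8, known from testis, and Psmb11, known from thymus, did not pass and never exceeded 0.0872 and 0.0193 FPKM.

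The proteasome degrades proteins that carry ubiquitin chains. Its barrel, the 20S core, is built from rings of alpha (Psma) and beta (Psmb) subunits, some of the latter with catalytic sites. The 19S regulatory particle, made of a base with an ATPase ring (Psmc) and other subunits (Psmd) and of a lid (Psmd), binds the chains, removes them and threads the substrate into the barrel. PA28 and PA200 activators (Psme) can take the place of the 19S cap, and interferon-induced subunits (Psmb8, Psmb9, Psmb10) replace the catalytic ones to form the immunoproteasome, which supplies peptides for antigen presentation. In muscle this system breaks down contractile proteins during atrophy and clears damaged ones.

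The 49 members were 7 alpha and 7 beta genes of the 20S core, 17 genes of the 19S particle, 3 immunoproteasome genes, 5 activator genes, the inhibitor Psmf1, 7 assembly chaperones and 2 genes that share only the name. The 19S genes were 6 ATPases, 3 other base subunits and 8 lid subunits, all named Psm. The 19S subunits Adrm1 and Sem1 lack that name and are given with the partners below. Psmd5, Psmd9 and Psmd10 encode chaperones of base assembly and were placed with Psmg1 to Psmg4, which encode chaperones of core assembly. Psme3ip1 encodes a partner of PA28 gamma and Psmc3ip a meiotic recombination factor, and neither is a proteasome subunit. Psme2b is a retrocopy of Psme2, so the reads of both are uncertain.

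All mice were male C57BL/KsJ db/db animals, which lack a working leptin receptor, aged 8 weeks at the start of an 8-week intervention, with 3 libraries in each of 4 groups. Controls were reared normally. HIIT mice did treadmill intervals on 5 days a week, each session of 10 runs lasting 4 min (85 to 90% of top speed) and separated by 2 min of slower running, and the sample titles give 60 min. Semaglutide, a GLP-1 receptor agonist, was injected under the skin every day. The protocol gives a dose of 30 nmol/kg and the titles one of 0.05 mg/kg, a difference that was not reconciled. The combination group had both. No injection is named for the control and HIIT groups, so the drug and the act of injecting cannot be told apart. There was no lean or non-diabetic group among the 12 libraries. The labels say muscle, and the protocol names soleus, a slow muscle in most mammals, among several tissues. Fast-fibre markers summed to 36254 to 48384 FPKM per library and slow-fibre markers to 174 to 1635. The labels do not describe the animal behind each library, so p-values measure only the spread between these libraries, which may be technical.

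Depth was estimated at 17.2 to 21.3 M fragments per library, and replicates of a group correlated at 0.97 to 0.991 across genes. Liver transcripts (8 hepatocyte markers, summed FPKM) were high in control libraries 1 and 2 (675 and 1309) and HIIT library 1 (375), 195 in control library 3, 20.6 and 73.1 in the other HIIT libraries, and 4.8 to 21.6 in the libraries with semaglutide. Combination libraries 2 and 3 had the lowest counts of features at an FPKM of 1 or more (9246 and 9181, against 9692 to 10690 in the others). Results are given with and without these libraries where they rest on them.

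The core and the 19S particle were abundant and the immune forms were scarce. On the FPKM scale, which is per length, mean levels over the 12 libraries ran from 23.2 (Psma2) to 159 (Psmb7) among 20S genes and from 30 (Psmd13) to 144 (Psmd8) among 19S genes. Activator genes ran from 5.06 (Psme2b) to 28.8 (Psme4), chaperones from 3.99 (Psmd5) to 13.3 (Psmg2), and immunoproteasome genes from 1.03 (Psmb9) to 4.71 (Psmb10). Within a complex whose subunits are present in equal numbers, transcript levels thus spanned 6.86-fold in the core and 4.81-fold in the 19S particle. Together the 49 genes made up 0.426 to 0.472% of the FPKM in control muscle, 0.396 to 0.469% with HIIT, 0.482 to 0.519% with semaglutide and 0.453 to 0.49% with both. The lowest semaglutide library lay above all 6 control and HIIT libraries, and the combination overlapped both.

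**Figure D1:**
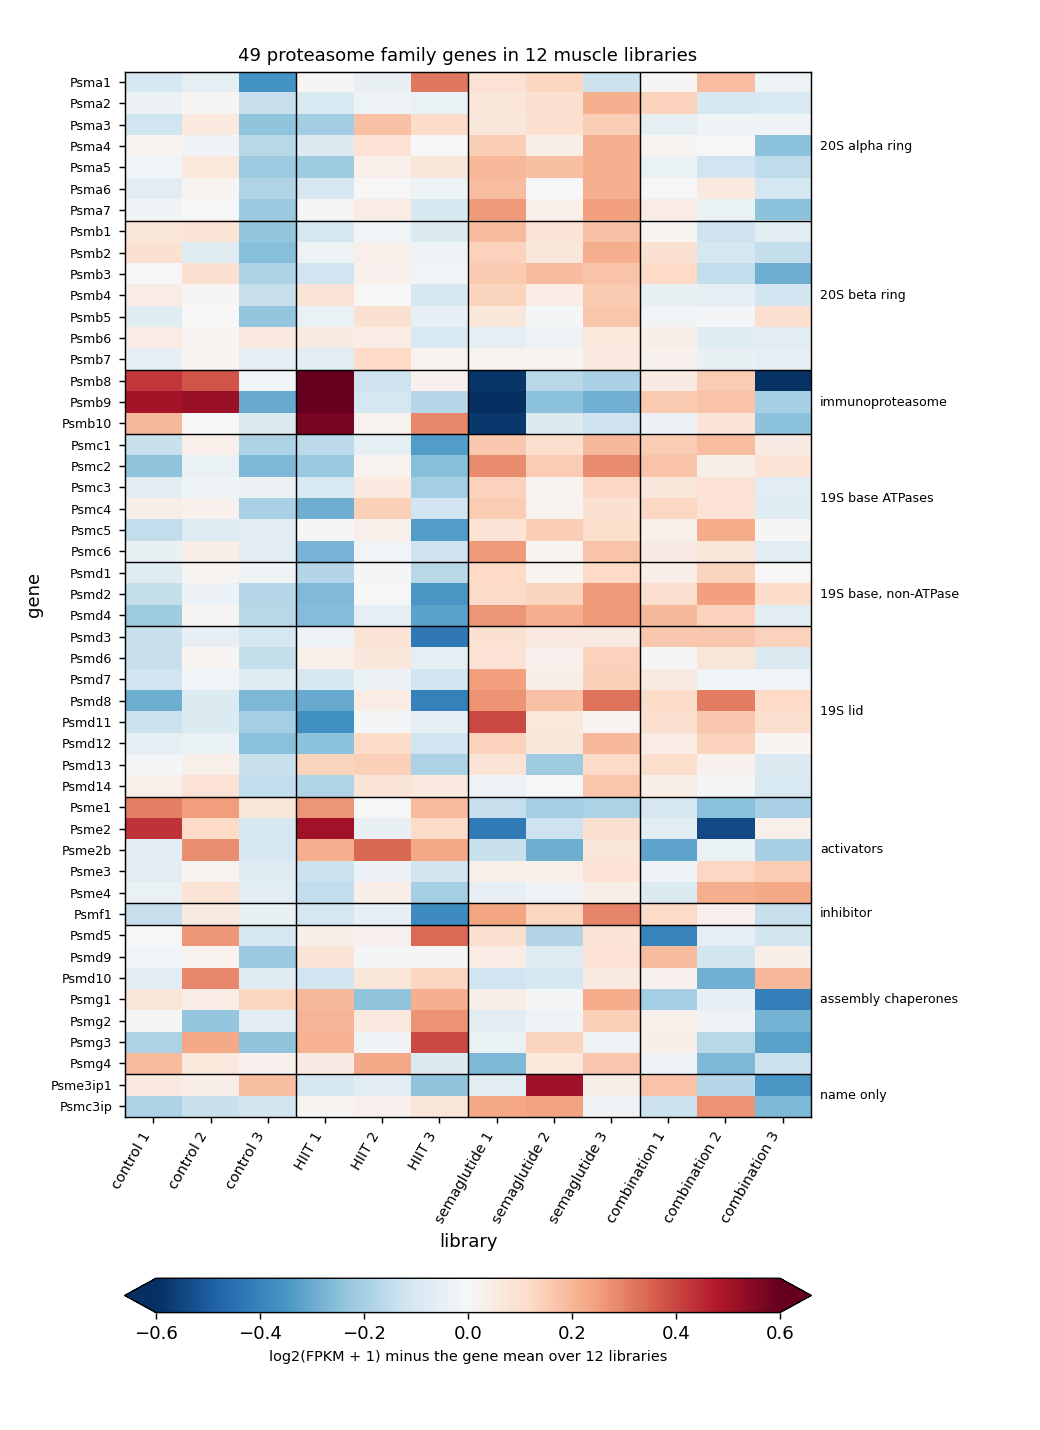
Level of each of the 49 genes (rows, grouped by complex) in each of the 12 libraries (columns), as log2(FPKM + 1) minus the gene's mean over the 12 libraries. Red is above the mean and blue below. The 19S rows are mostly red in the 6 libraries with semaglutide, the 20S rows mostly in the 3 libraries with semaglutide alone, and Psme1 is blue in all 6.

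The clearest change was in the 19S regulatory particle. When the effect of semaglutide was averaged over sedentary and exercised mice, 6 members rose, all of them 19S genes: the base ATPases Psmc1 and Psmc2, the base subunits Psmd2 and Psmd4, and the lid subunits Psmd8 and Psmd11. Psme1, for PA28 alpha, and the retrocopy Psme2b fell. None of the 14 core genes passed the test. Of all genes tested, 16.8% were called in this comparison, 4.69% higher and 12.2% lower, so 8 of 49 members is near the overall share, while 6 of 17 in the 19S particle compares with 4.69% called higher. All 17 of the 19S genes named Psm had a positive log2 change, against 34.5% of all genes tested. Their median log2 change was 0.20, the core's was 0.085 and that of all genes tested was -0.083. The core median was 0.142 with median-ratio rescaling, 0.137 without the 3 libraries rich in liver transcripts and 0.04 without control library 3, and the 19S median was then 0.258, 0.209 and 0.168.

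Promoter sequences of the 6 genes are shown because they are the members that rose. RefSeq promoter sequences (build GRCm38.p6, 250 bases before to 50 after the start) were found for 42 of the 49 members, 46 promoters in all since some genes have several starts. The capitals mark CCGGAAG or its reverse complement, the core of an ETS family site. Psmd8, which holds no such match in its 300 bases, is shown beside the others with the 50 bases before its start, and Psmb5, the chymotrypsin-like core subunit, is shown with its match to TGACNNNGC, the core of an antioxidant response element, in capitals.

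Psmc1 (chr12:100110152-100110201, plus strand): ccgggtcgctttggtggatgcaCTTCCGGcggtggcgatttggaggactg

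Psmc2 (chr5:21785170-21785219, plus strand): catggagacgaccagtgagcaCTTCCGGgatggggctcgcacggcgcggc

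Psmd2 (chr16:20651602-20651651, plus strand): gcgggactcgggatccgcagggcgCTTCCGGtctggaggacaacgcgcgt

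Psmd4 (chr3:95042711-95042760, minus strand): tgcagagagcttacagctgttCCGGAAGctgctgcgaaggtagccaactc

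Psmd11 (chr11:80428565-80428614, plus strand): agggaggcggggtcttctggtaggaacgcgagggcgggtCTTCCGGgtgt

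Psmd8 (chr7:29180674-29180723, minus strand): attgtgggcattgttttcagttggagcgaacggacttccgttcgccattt

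Psmb5 (chr14:54618013-54618062, minus strand): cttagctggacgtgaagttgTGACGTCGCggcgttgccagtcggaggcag

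CCGGAAG, searched on both strands, was present in 10 of 15 19S promoters (66.7%) and in 1 of 12 core promoters (8.33%). The share was 8.86% of all 32851 promoters and 17.7% of promoters of the genes tested. By gene, 9 of 14 19S genes with a promoter held it, among them 5 of the 6 that rose. It was also in Psmc6, Psmd6, Psmd12 and Psmd13, which were not called. Of 9 motifs searched, 5 were searched first (TGACNNNGC, TTCNNNGAA, the forkhead site TGTTTAC, the box CCAAT and the core of the interferon-stimulated response element), and 4, CCGGAAG among them, were added after the shares of the first had been seen. TGACNNNGC was in 13.3% of 19S and 16.7% of core promoters against 14.4% of promoters of genes tested. TGTTTAC, a forkhead site, was in none of the 46 against 2.49%. CCAAT was in 26.7% of 19S and 50% of core promoters against 37.4%. The other added motifs were GGGCGG (66.7%, 41.7% and 62.9% in the same order), the nuclear respiratory factor 1 site (20%, 25% and 10.3%) and AANATGGC (13.3%, 33.3% and 8.74%). TTCNNNGAA was in 6.67% of 19S and 0% of core promoters against 6.42%, and the interferon-stimulated core in 6.67% and 8.33% against 2.73%. No motif contains another, and their matches can share bases. A match describes letters in the sequence and not a binding site, and these shares were not tested.

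The members that rose are described by their place in the particle. Psmc2, the ATPase Rpt1, stood at 54.4, 62.7 and 53.4 FPKM in controls, at 55.2, 65.4 and 53.9 with HIIT, at 78.7, 71.7 and 78.9 with semaglutide and at 72.8, 66.2 and 68.4 with both. All 6 libraries with semaglutide lay above all 6 without. Its log2 change averaged over exercise was 0.34 ± 0.069 (SE, n = 3 per group, adjusted p = 0.0116). Psmc1, the ATPase Rpt2, stood at 83.6, 93.7 and 80.7 FPKM in controls, at 82.2, 88.4 and 72.6 with HIIT, at 103, 98 and 105 with semaglutide and at 102, 104 and 94.9 with both. Again the 6 libraries with the drug lay above the other 6, with a log2 change of 0.28 ± 0.065 (adjusted p = 0.0183). The other 4 ATPase genes had log2 changes of 0.12 to 0.20 and did not pass the test.

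Psmd2 (Rpn1) is a base scaffold that docks ubiquitin receptors and the deubiquitinase Usp14, and Psmd4 (Rpn10) is itself a ubiquitin receptor. Psmd2 stood at 79.1, 85.3 and 77.4 FPKM in controls, at 72.6, 87.4 and 68.3 with HIIT, at 94.9, 96.1 and 105 with semaglutide and at 93.7, 104 and 94.6 with both. The libraries with and without the drug did not overlap, and the log2 change was 0.32 ± 0.07 (adjusted p = 0.0139). Psmd4 stood at 105, 123 and 109 FPKM in controls, at 102, 118 and 97.7 with HIIT, at 147, 143 and 146 with semaglutide and at 140.0, 135 and 117 with both. Only combination library 3 fell into the range of the libraries without the drug, and the log2 change was 0.34 ± 0.07 (adjusted p = 0.0123). The third non-ATPase base subunit, Psmd1, had a log2 change of 0.14 ± 0.054 (adjusted p = 0.0906).

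In the lid, Psmd8 (Rpn12), whose incorporation completes lid assembly in yeast, had the highest level of the 19S genes and the largest positive log2 change of the 49 members. It stood at 116, 134 and 118 FPKM in controls, at 115, 147 and 107 with HIIT, at 172, 161 and 178 with semaglutide and at 153, 176 and 154 with both. The 6 libraries with semaglutide lay above the other 6, and the log2 change was 0.44 ± 0.084 (adjusted p = 0.00966). Psmd11 (Rpn6), which clamps the lid to the core, stood at 36.5, 37.8 and 34.6 FPKM in controls, at 30.8, 39.8 and 38.6 with HIIT, at 53, 41.8 and 40.4 with semaglutide and at 42.8, 44.9 and 43 with both. It too did not overlap between libraries with and without the drug, with a log2 change of 0.28 ± 0.083 (adjusted p = 0.0418). Psmd14 (Rpn11), the deubiquitinase of the lid, and Psmd13 (Rpn9) had log2 changes of 0.023 ± 0.07 and 0.01 ± 0.082, the smallest of the particle. In all, 5 of 17 19S genes had every library with semaglutide above every library without, against 2.28% of all genes tested, and 0 of 14 core genes did.

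The counts depended on a few libraries. Without control libraries 1 and 2 and HIIT library 1, which were rich in liver transcripts, no member was called higher or lower, while 349 genes still were. Yet the log2 changes of the 6 genes were then 0.26 to 0.44, and the median of the 19S genes was 0.21. Without combination libraries 2 and 3, only Psmd4 was called, and the 6 log2 changes were 0.27 to 0.40. Psmd11 was also lost when any of 8 single libraries was left out, and Psmc1, Psmc2, Psmd2, Psmd4 and Psmd8 kept an adjusted p of at most 0.05 without any single library. With libraries rescaled by their median ratio, 14 members were called higher, 12 of them 19S genes and 1 a core gene, Psma2. With the nuclear genes of each library brought to an equal sum, 11 were, 10 of them 19S genes. All 8 hepatocyte markers fell in this comparison (median log2 change -3.10), as did 4 of 6 endothelial markers (median -0.44), where 12.2% of all genes fell. The 8 white adipocyte markers summed to 376 to 1015 FPKM in controls and 676 to 1049 with HIIT. The sum was 193 to 520 with semaglutide and 268 to 853 with both. The part of these cell types in the proteasome values was not tested. In bulk tissue, fewer cells of a type and less RNA per cell cannot be told apart.

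**Figure D2:**
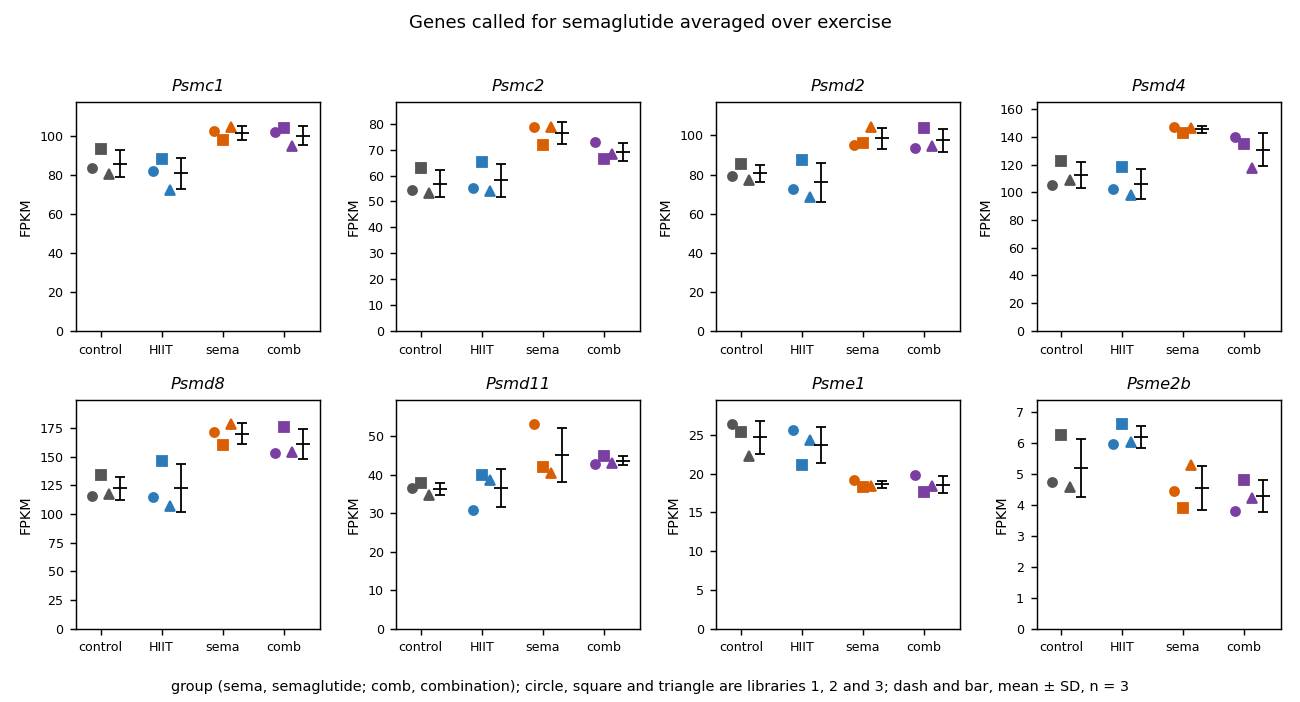
FPKM (vertical axes, from 0) of the 8 genes called for semaglutide averaged over exercise, by group. Symbols are the 3 libraries, and dash and bar give mean ± SD. Psmc1, Psmc2, Psmd2, Psmd8 and Psmd11 show the 6 libraries with semaglutide above the other 6, and Psme1 shows them below.

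With semaglutide alone, core and 19S genes both lay above the controls, and 2 members passed the test. Psmc2 rose (log2 change 0.42 ± 0.097, adjusted p = 0.0377) and Psme1 fell (-0.38 ± 0.092, adjusted p = 0.0432), where 3.72% of all genes were called, 1.13% higher and 2.59% lower. Psmd8 (0.47 ± 0.12, adjusted p = 0.0516) and Psmd4 (0.37 ± 0.099, adjusted p = 0.0623) missed the threshold. All 17 of the 19S genes and 13 of 14 core genes had log2 changes above 0, with medians of 0.21 and 0.20, against 41.5% and a median of -0.046 for all genes tested. The core median was 0.332 without the 3 libraries rich in liver transcripts and 0.127 without control library 3, where the 19S median was 0.226 and 0.184. The first of these settings compares with control library 3 alone. The 3 semaglutide libraries lay wholly above the 3 controls for 12 of 17 19S genes and 8 of 14 core genes, against 10.8% of all genes. The largest core changes were in Psma7 (0.26 ± 0.10) and Psma5 (0.25 ± 0.096), with adjusted p of 0.195 and 0.175. Psmb6, the caspase-like catalytic subunit, was the exception at -0.046 ± 0.075. Both calls were lost in a fit on these 2 groups alone (adjusted p = 0.0612 and 0.0646), and each was lost in 8 of the 12 fits that left out 1 library. Without the 3 libraries rich in liver transcripts, Psmc2 was at 0.51 and Psme1 at -0.25, neither called.

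In the combination group the 19S genes lay above the controls and the core genes lay on both sides of them. No member was called higher, where 1.09% of all genes were, and 7 members had an unadjusted p under 0.05 in limma's test in either direction, a share below the 25.9% of all genes. Psme1 alone was called lower (-0.39 ± 0.092, adjusted p = 0.0365), where 5.18% of all genes were. Among 19S genes 16 of 17 log2 changes were above 0 with a median of 0.18, against 29.1% and a median of -0.13 for all genes tested, and in 8 the libraries lay wholly above the controls, against 6.37% of all genes. Psmd8 (0.39 ± 0.12, adjusted p = 0.0728), Psmc2 (0.28 ± 0.097, 0.104), Psmd2 (0.27 ± 0.099, 0.119) and Psmc1 (0.22 ± 0.092, 0.157) came nearest. Among core genes 8 of 14 were above 0, the median was 0.004, and in 1, Psma1, the libraries lay wholly above. With median-ratio rescaling 3 members were called higher, the Psme1 call was lost (adjusted p = 0.0696), and the core and 19S medians were 0.11 and 0.29. The core median was 0.133 without the 3 libraries rich in liver transcripts, 0.077 without combination libraries 2 and 3 and -0.061 without control library 3. The Psme1 call was also lost in 7 of the 12 fits that left out 1 library.

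With HIIT alone no member passed the test. None was called, as no gene of the 10666 was, and 1 member, the chaperone gene Psmg2, had an unadjusted p under 0.05 in limma's test, as did 8.93% of all genes. The median log2 change was -0.013 for 19S genes and 0.045 for core genes, against -0.025 for all genes tested. The core median rested on few libraries, at 0.193 without the 3 rich in liver transcripts (all genes -0.015), at -0.017 and 0.075 without control library 3 or 2 and at 0.073 and 0.013 without HIIT library 1 or 2, while the 19S median was -0.104 without HIIT library 2. The largest core change was in Psma1, an alpha subunit, which stood at 41.5, 42.8 and 34.6 FPKM in controls, at 44.8, 43.3 and 55.9 with HIIT, at 47.5, 48.9 and 40.7 with semaglutide and at 44.9, 50.9 and 43.8 with both. All 3 HIIT libraries lay above the controls, a separation whose all-gene share is not given here. HIIT library 3 was the highest of the 12, and the log2 change was 0.27 ± 0.12 (adjusted p = 0.558). The same 3 control libraries enter all 3 of these comparisons, so their values are not independent of each other.

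**Figure D3:**
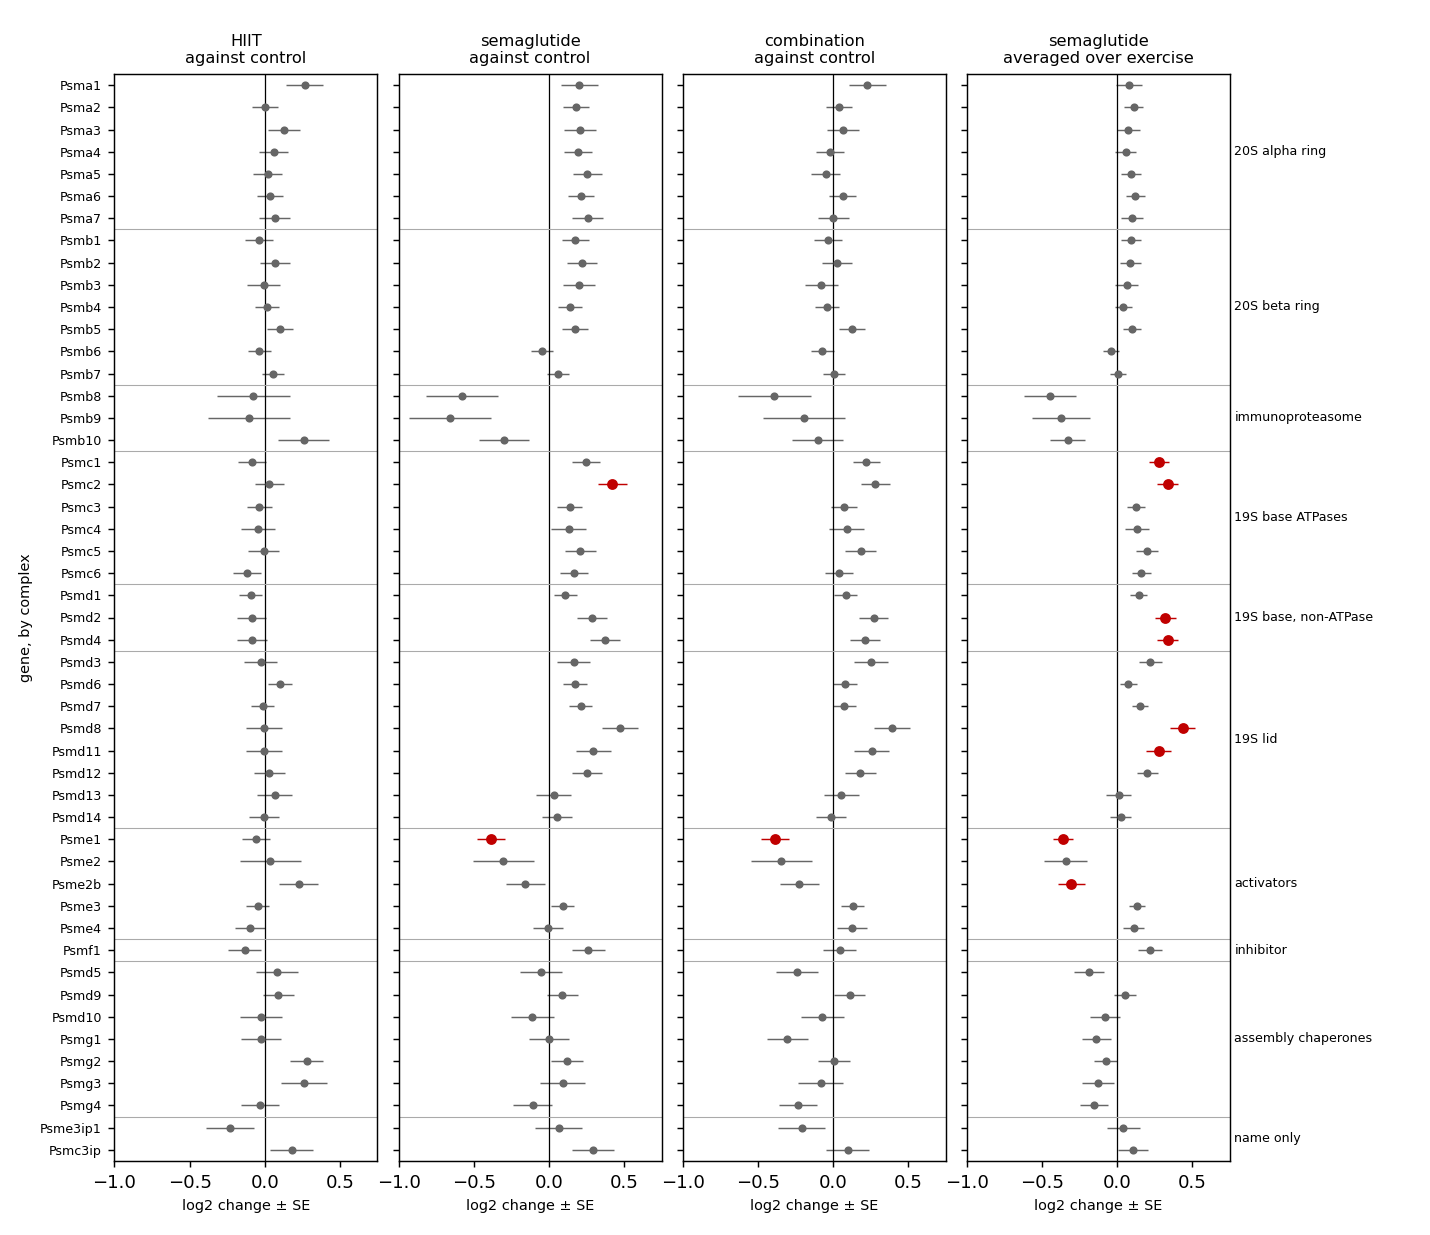
Log2 change (horizontal axes) with its SE for each of the 49 genes, grouped by complex, in 4 comparisons. Red points were called at an adjusted p of 0.05 or less. Under HIIT the points lie on both sides of 0, under semaglutide alone core and 19S genes both lie to the right, and in the combination mainly the 19S genes do. Averaged over exercise, the 6 red points to the right are 19S genes.

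Between semaglutide and HIIT, Psmd4 (0.46 ± 0.099, adjusted p = 0.0278), Psmc2 (0.39 ± 0.097, 0.0449) and Psmd8 (0.48 ± 0.12, 0.0454) were higher under semaglutide, where 2.35% of all genes were called higher. Leaving out 1 library gave 0 to 5 such calls, and without the 3 libraries rich in liver transcripts there were none. Between the combination and HIIT no member was called, where 3.01% of all genes were, and 15 members had an unadjusted p under 0.05 in limma's test, near the 27.1% of all genes. Psmd2 (0.36 ± 0.099, adjusted p = 0.0664) and Psme1 (-0.33 ± 0.092, 0.0681) were nearest. Here 8 of 17 19S genes and 0 of 14 core genes had the combination libraries wholly above, against 7.49% of all genes. Same-numbered HIIT and combination libraries deviated together (correlations of 0.29, 0.27 and 0.22), though no label pairs them, and with the number as a block Psme2b was called lower and no member higher. Rescaling by the median ratio gave 5 members higher and the equal nuclear sum gave 2.

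Core genes had lower values in the combination than with semaglutide alone, without a call. Between these groups no member was called, as 0.00938% of all genes were, and 7 members had an unadjusted p under 0.05 in limma's test, as did 12.1% of all genes. Yet 13 of 14 core genes were lower in the combination and 1 was higher, where 34.6% of all genes were higher, with a median log2 change of -0.17 against -0.068 for all genes tested. That median was -0.083 with median-ratio rescaling (all genes -0.004) and -0.105 without combination libraries 2 and 3 (all genes 0.007). In 6 core genes the 3 combination libraries lay wholly below, against 12.4% of all genes. Psma5 was nearest to the threshold (-0.30 ± 0.096, adjusted p = 0.314), followed by Psmb3 (-0.28 ± 0.11, 0.355). The 19S genes had a median of -0.066, with 1 gene wholly below and 1 wholly above. The interaction of exercise and drug, which tests whether semaglutide acted differently with HIIT, was called for no member and for no gene (0%), and 3 members had an unadjusted p under 0.05 in limma's test, as did 7.71% of all genes. Its median was -0.22 over core genes, -0.034 over 19S genes and -0.062 over all genes tested. Without the 3 libraries rich in liver transcripts these were -0.407, -0.134 and -0.081, and without control library 3 the core median was -0.146. Exercise averaged over the drug was called for no member and for no gene (0%), with 2 members at an unadjusted p under 0.05, as were 12.6% of all genes. In an F test over the 4 groups, Psmc2, Psmd4, Psmd8 and Psme1 passed (adjusted p of 0.04 to 0.0479), where 6.11% of all genes did.

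The balance of both complexes can be read within each library, where scaling cancels. The mean log2(FPKM + 1) of the 17 19S genes minus that of the 14 core genes was -0.114, -0.046 and 0.017 in the controls. It was -0.12, -0.024 and -0.223 under HIIT, 0.029, -0.026 and -0.009 with semaglutide and 0.046, 0.143 and 0.094 with both. The 3 combination libraries were the 3 highest of the 12, and semaglutide alone lay within the range of the controls except library 1. HIIT library 3, the lowest, also had the largest share of mitochondrially encoded transcripts (42% of FPKM, against 31.3 to 38.1% in the others).

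**Figure D4:**
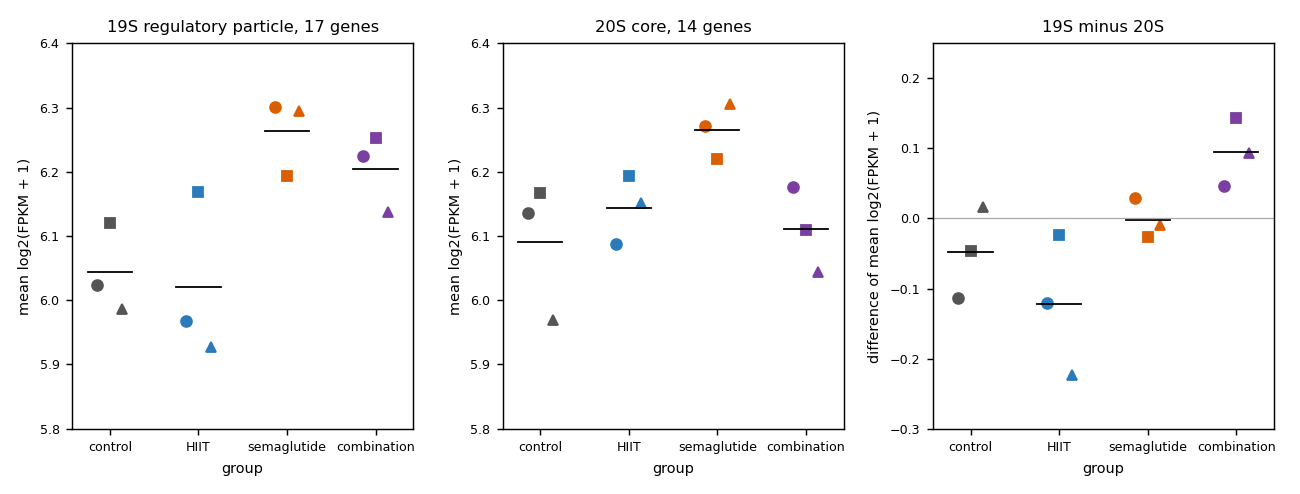
Mean log2(FPKM + 1) of the 19S genes and of the 20S core genes in each library, and their difference, by group; symbols are the 3 libraries and lines the group means (the vertical axes do not start at 0). The 19S mean is higher in semaglutide and combination libraries than in most others, the core mean in semaglutide libraries, and the difference is highest in the 3 combination libraries (0.046 to 0.143).

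The catalytic core subunits varied little between libraries. The immune subunits that replace them had lower values with semaglutide alone, none of which passed the test. Psmb5, the chymotrypsin-like subunit, stood at 92.1, 96.8 and 82.4 FPKM in controls, at 94.1, 103 and 93.5 with HIIT, at 102, 96.1 and 109 with semaglutide and at 95.9, 96.2 and 104 with both. Psmb6 stood at 117, 114 and 118 FPKM in controls, at 118, 117 and 106 with HIIT, at 109, 111 and 118 with semaglutide and at 117, 108 and 108 with both. Psmb7, the trypsin-like subunit and the most abundant member, stood at 154, 160.4 and 154 FPKM in controls, at 152, 173 and 162 with HIIT, at 162, 161 and 166 with semaglutide and at 162, 154 and 153 with both. For each of these 3 genes the highest library was within 1.32-fold of the lowest. The groups overlapped, except that the semaglutide libraries for Psmb7 lay just above the controls, as in 10.8% of all genes. Their log2 changes averaged over exercise were 0.10 ± 0.062, -0.041 ± 0.053 and 0.0066 ± 0.052.

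Psmb8, which replaces Psmb5, stood at 2.75, 2.63 and 1.76 FPKM in controls, at 3.39, 1.57 and 1.85 with HIIT, at 0.865, 1.49 and 1.44 with semaglutide and at 1.9, 2.11 and 0.854 with both. The 3 semaglutide libraries lay below all controls and all HIIT libraries, while the combination overlapped every group. Such separation of 3 libraries from 3 was not rare. Semaglutide lay wholly above controls in 10.8% of all genes, and the combination wholly below semaglutide in 12.4%. The all-gene shares for the separations of Psmb8, Psmb9 and Psmb10 are not given here. Psmb9, which replaces Psmb6, stood at 1.76, 1.8 and 0.587 FPKM in controls, at 2.14, 0.82 and 0.737 with HIIT, at 0.181, 0.649 and 0.602 with semaglutide and at 1.18, 1.2 and 0.704 with both. Values under 1 rest on few fragments. The semaglutide libraries lay below all HIIT and all combination libraries and overlapped the controls. Psmb10, which replaces Psmb7, stood at 5.42, 4.6 and 4.29 FPKM in controls, at 7.34, 4.71 and 5.85 with HIIT, at 2.76, 4.3 and 4.15 with semaglutide and at 4.48, 4.95 and 3.73 with both. The semaglutide libraries lay below all HIIT libraries and met the lowest control, and HIIT library 1 was the highest of the 12 for all 3 genes.

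Averaged over exercise, the log2 changes were -0.45 ± 0.17 for Psmb8 (adjusted p = 0.0931), -0.38 ± 0.19 for Psmb9 (0.19) and -0.33 ± 0.12 for Psmb10 (0.0781). Against controls, semaglutide alone gave -0.58 ± 0.24, -0.66 ± 0.27 and -0.30 ± 0.17, with adjusted p of 0.22, 0.215 and 0.367. The combination gave -0.39 ± 0.24, -0.20 ± 0.27 and -0.10 ± 0.17, and HIIT gave -0.076 ± 0.24, -0.10 ± 0.27 and 0.26 ± 0.17. Summed, the 3 immune genes amounted to 2.74, 2.43 and 1.88% of the FPKM of Psmb5, Psmb6 and Psmb7 in the controls and to 3.54, 1.8 and 2.33% under HIIT. The share was 1.02, 1.75 and 1.58% with semaglutide and 2.02, 2.3 and 1.45% with both. The semaglutide libraries were below all controls and all HIIT libraries, and the combination overlapped the controls.

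**Figure D5:**
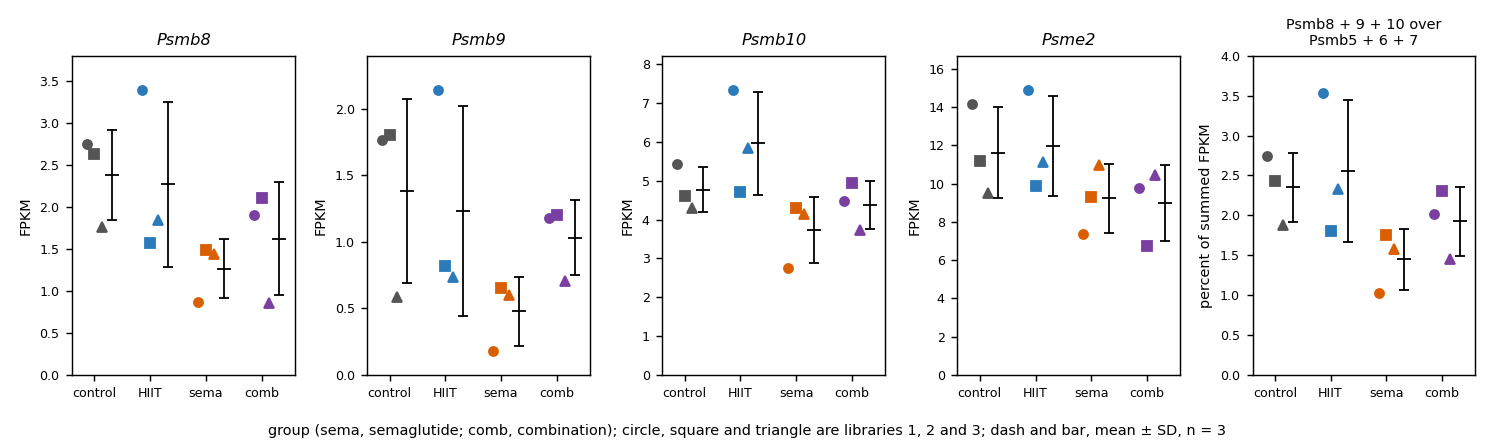
FPKM of the immunoproteasome genes Psmb8, Psmb9 and Psmb10 and of the activator gene Psme2 by group, and, at right, the summed FPKM of the 3 immune genes as a percent of the catalytic genes they replace. Symbols are the 3 libraries, and dash and bar give mean ± SD. The percent is 1.02 to 1.75 under semaglutide, below the 1.8 to 3.54 of control and HIIT libraries.

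Among the activators, PA28 alpha fell with semaglutide averaged over exercise. Psme1 stood at 26.3, 25.4 and 22.3 FPKM in controls, at 25.6, 21.1 and 24.3 with HIIT, at 19.1, 18.3 and 18.4 with semaglutide and at 19.8, 17.6 and 18.4 with both. All 6 libraries with the drug lay below all 6 without, as in 4.02% of all genes tested. The log2 change was -0.36 ± 0.065 averaged over exercise (adjusted p = 0.00797). That call held without any single library (adjusted p up to 0.0258) and was lost without the 3 libraries rich in liver transcripts (-0.26, adjusted p = 0.129) and without combination libraries 2 and 3 (-0.32, adjusted p = 0.0818). The first bases of its transcript are shown because they hold one of the motifs searched. They contain the core of the interferon-stimulated response element on the opposite strand (in capitals), a motif found in 2.73% of promoters of genes tested. The same core was in 5 of 46 member promoters, among them that of Psmd4, which rose. It was in 0 of 3 immunoproteasome promoters.

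Psme1 (chr14:55578494-55578523, plus strand): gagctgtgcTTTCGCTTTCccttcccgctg

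Psme2, for the PA28 beta subunit that forms a ring with PA28 alpha, stood at 14.2, 11.2 and 9.49 FPKM in controls, at 14.9, 9.89 and 11.2 with HIIT, at 7.38, 9.31 and 11 with semaglutide and at 9.75, 6.71 and 10.5 with both. The groups overlapped, and the log2 change was -0.34 ± 0.14 (adjusted p = 0.117). Psme2b stood at 4.74, 6.27 and 4.59 FPKM in controls, at 5.96, 6.6 and 6.03 with HIIT, at 4.46, 3.89 and 5.29 with semaglutide and at 3.81, 4.82 and 4.21 with both. It fell by the averaged test (-0.30 ± 0.092, adjusted p = 0.0436), and the call was lost without any 1 of 10 libraries. The HIIT libraries lay above all libraries with semaglutide, a separation whose all-gene share is not given here. The controls overlapped the libraries with semaglutide. Its reads may come in part from Psme2.

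Psme3, for nuclear PA28 gamma, stood at 17.7, 18.8 and 17.5 FPKM in controls, at 16.9, 18.1 and 17.1 with HIIT, at 19, 18.9 and 19.8 with semaglutide and at 18.3, 20.3 and 20.7 with both. The semaglutide libraries lay just above the controls, as in 10.8% of all genes. The log2 change was 0.13 ± 0.053 averaged over exercise (adjusted p = 0.1). Psme4, for PA200, stood at 28, 30.4 and 27.5 FPKM in controls, at 25.9, 29.6 and 24.8 with HIIT, at 27.7, 28.3 and 29.5 with semaglutide and at 27.1, 33.5 and 33.8 with both. Combination libraries 2 and 3 were the highest, and the averaged change was 0.11 ± 0.071 (adjusted p = 0.291). In the averaged contrast the activators thus split by kind in sign, the interferon-inducible PA28 genes below 0 and PA28 gamma and PA200 above it. The difference between them was not tested. With semaglutide alone against controls, 1 of 5 activator genes was above 0 and 4 were below. Psme4 then averaged 28.5 FPKM, against 28.6 in controls.

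Macrophages and lymphocytes express the immune subunits strongly, and the markers of these cells are given beside them. Of 12 macrophage markers 11 were tested and none was called for semaglutide averaged over exercise, where 16.8% of all genes were. All 11 had log2 changes below 0, as did 65.5% of all genes, and their median was -0.69. The summed FPKM of the 12 was 40 to 128 in control muscle, 37.1 to 195 with HIIT, 25.2 to 39.4 with semaglutide and 28.6 to 110 with both. None of 8 lymphocyte markers passed the filter, and their sum was at most 0.306 FPKM in any library. The part of macrophages in the values of Psmb8 to Psmb10 and Psme1 was not tested. Of 20 tested antigen-processing and interferon-gamma genes, 5 of them also members here, 2 fell (Psme1 and the GTPase gene Gbp2, -0.52 ± 0.16) and none rose, where 12.2% of all genes fell. Gbp2 was low, at 0.497 to 2.76 FPKM. All 20 were below 0 with a median of -0.31, as were 65.5% of all genes, whose median was -0.083. B2m, the light chain of class I molecules, was at -0.62 ± 0.23 (adjusted p = 0.0913).

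The inhibitor and the assembly chaperones did not pass the test. Psmf1 encodes PI31, which inhibits the core in vitro. It stood at 4.66, 5.46 and 5.03 FPKM in controls, at 4.8, 5.01 and 3.8 with HIIT, at 6.34, 5.8 and 6.62 with semaglutide and at 5.74, 5.34 and 4.66 with both. The semaglutide libraries lay above all controls, as in 10.8% of all genes, and above all HIIT libraries. The averaged log2 change was 0.22 ± 0.079 (adjusted p = 0.0761). Psmf1 was called higher under both rescalings.

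Psmg1 and Psmg2 encode a pair of chaperones that seed the alpha ring, as do Psmg3 and Psmg4. Psmg1 stood at 6.67, 6.53 and 6.97 FPKM in controls, at 7.36, 5.18 and 7.46 with HIIT, at 6.47, 6.26 and 7.51 with semaglutide and at 5.33, 6.04 and 4.49 with both. The combination libraries lay below all controls, with a log2 change of -0.30 ± 0.14 (adjusted p = 0.183). Psmg2 stood at 13.2, 11.1 and 12.6 FPKM in controls, at 15.4, 13.8 and 16.2 with HIIT, at 12.7, 13 and 14.7 with semaglutide and at 13.5, 13 and 10.7 with both. The HIIT libraries lay above all controls (0.28 ± 0.11, adjusted p = 0.47) and above the combination (combination minus HIIT -0.27 ± 0.11, adjusted p = 0.137). The all-gene shares for these separations of Psmg1 and Psmg2 are not given here. Psmg3 stood at 3.75, 5.33 and 3.58 FPKM in controls, at 5.25, 4.33 and 6.13 with HIIT, at 4.26, 4.95 and 4.33 with semaglutide and at 4.55, 3.83 and 3.34 with both. Psmg4 stood at 5.24, 4.73 and 4.58 FPKM in controls, at 4.66, 5.4 and 4.16 with HIIT, at 3.54, 4.72 and 5.14 with semaglutide and at 4.4, 3.55 and 4 with both. Psmg3 overlapped between all groups. For Psmg4 the combination libraries lay below all controls, as for Psmg1, again without an all-gene share given here. Every other pair of groups overlapped for Psmg4. The averaged log2 changes of Psmg3 and Psmg4 were -0.13 ± 0.11 and -0.15 ± 0.091. The chaperones as a class had a median of -0.125 averaged over exercise, with 6 of 7 below 0, against -0.083 for all genes tested.

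Other genes of the pathway were counted from lists chosen with earlier results of these data known. Of 15 partners of the proteasome not named Psm, 3 rose with semaglutide averaged over exercise and none fell, where 4.69% of all genes rose and 12.2% fell. They were the 19S ubiquitin receptor Adrm1 (0.33 ± 0.084, adjusted p = 0.0246), the deubiquitinase Usp14 (0.28 ± 0.085, 0.045) and the shuttle factor Ubqln1 (0.24 ± 0.069, 0.0382). The list's median was 0.093. Adrm1 and Usp14 both dock on the base of the 19S particle.

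Of 14 genes tested for transcription of proteasome genes, 4 rose and none fell, with a median of 0.15, against the same 4.69% and 12.2% of all genes. They were Foxo3 (0.59 ± 0.085) and Foxo1 (0.98 ± 0.22), factors of muscle atrophy, and Keap1 (0.28 ± 0.075) and Mafk (0.29 ± 0.071), a brake on and a partner of Nrf2. Nfe2l1, which encodes the factor Nrf1 that drives proteasome genes when the proteasome is inhibited, was at 0.14 ± 0.086 (adjusted p = 0.256), and Nfe2l2, which encodes Nrf2, at 0.35 ± 0.13 (0.074). Among the ubiquitin and first-enzyme genes reported here, the polyubiquitin gene Ubb (0.26 ± 0.075) rose and the conjugating enzyme gene Ube2d2a (-0.28 ± 0.07) fell.

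Of 14 muscle ubiquitin ligases, 6 rose and none fell, against 4.69% and 12.2% of all genes. Fbxo32 (atrogin-1) rose by 1.30 ± 0.14 and Trim63 (MuRF1) by 1.09 ± 0.16 on the log2 scale, and both are ligases of muscle atrophy. The other 4 were Klhl38 (1.30 ± 0.16), Trim54 (MuRF3, 0.85 ± 0.099), Fbxo31 (0.45 ± 0.061) and Fbxo21 (0.42 ± 0.085). The largest rise of a proteasome member, that of Psmd8, was 0.44. In FPKM, Fbxo32 was at 46.2, 59.9 and 46.1 in controls, at 39.4, 38.7 and 55.3 with HIIT, at 182, 123 and 105 with semaglutide and at 113, 90.8 and 109 with both. All 6 libraries with the drug lay above the other 6.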

How the data were processed

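RNA was extracted from muscle of db/db mice, 12 libraries in 4 groups of 3, and the authors deposited 1 table of FPKM values with 1 column for each library. Per the submitters' processing notes the build was GRCm39, and the tools named, without a role for each, were STAR 2.7.9a, Trimmomatic 0.36, StringTie 2.1.4, featureCounts 2.0.1, FastQC and CASAVA. The tool that gave the FPKM is not given in the sources used here, nor is the annotation release. No count test was run, since only FPKM were used. The libraries were stranded and poly(A)-selected, per the labels' protocols, but how strand was treated in counting is not given.

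The FPKM were used as deposited, as log2(FPKM + 1), a scale that understates changes of low genes. A model with 1 mean per group was fitted to the 10666 genes with an FPKM of at least 1 in at least 3 libraries, in R 4.3.3 by limma 3.58.1, with a trended and robust variance. Tests were two-sided and adjusted by Benjamini-Hochberg over all these genes, and a gene was called at an adjusted p of at most 0.05. The fit was tested on simulated data. SE are limma's. Besides an F test, 9 contrasts were tested. The contrast averaged over exercise is the mean of semaglutide minus control and combination minus HIIT.

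Members, gene lists and marker lists were chosen with earlier results of these data known. Values per library are given for each member called, the 5 with the smallest p in each comparison with control, the catalytic, immune, activator and inhibitor genes and Psmg1 to Psmg4. A result of the ubiquitin list is not reported here. Depth was estimated from the smallest FPKM steps of genes with 1 transcript (47 to 60 values per library) with lengths from GENCODE M21, so an FPKM under 1 rests on few fragments. Promoters came from RefSeq (GRCm38.p6), not the authors' build. The alternatives were another pseudocount, no filter, 2 rescalings, a replicate block, a fit on 2 groups, no trend, and libraries left out.

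Whether equal replicate numbers pair libraries was checked on each library's departure from its group mean. Same-numbered libraries correlated at -0.23 to 0.29 in 18 pairs, and for 2 of 12 the closest library bore the same number, so the numbers were not used as pairs.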

Additional observations from a re-analysis of the deposited data

How the results depend on the processing

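No result changed sign past the threshold under any alternative. Averaged over exercise, semaglutide gave 6 members higher and 2 lower. Higher calls numbered 14 with median-ratio rescaling, 11 with nuclear genes at an equal sum, 0 without the 3 libraries rich in liver transcripts and 1 without combination libraries 2 and 3. These last 2 settings were added after seeing the data, keep 1 library in a group, assume that it varies like the others, and gave 0 lower. Lower calls numbered 1 with no filter, with either rescaling and with the replicate block, which gave 5 higher. Leaving out 1 library gave 5 to 9 higher and 1 to 2 lower. Against controls, semaglutide had 1 higher and 1 lower. Higher calls numbered 2 with a pseudocount of 0.1, 3 with either rescaling, and 0 with no filter, with the replicate block, in the 2-group fit and without either of these sets of libraries. Lower calls numbered 0 with no filter, the equal nuclear sum, no trend, the 2-group fit and without either of these sets. Leaving out 1 library gave 0 to 2 higher and 0 to 1 lower. The combination against controls had 0 higher and 1 lower. Higher calls numbered 3 with median-ratio rescaling and 1 with the equal nuclear sum, and lower calls 0 with both, in the 2-group fit and without either of these sets. Leaving out 1 library gave 0 to 1 in either direction. The combination against HIIT had none. Higher calls numbered 5 with median-ratio rescaling and 2 with the equal nuclear sum, lower calls 1 with the replicate block within these groups (added after seeing the data), and leaving out 1 library gave 0 to 2 higher and 0 to 1 lower. Semaglutide against HIIT had 3 higher. The count was 6 with either rescaling, 1 with no filter, no trend or without combination libraries 2 and 3, and 0 in the 2-group fit and without the libraries rich in liver transcripts. Lower calls numbered 1 with median-ratio rescaling. Leaving out 1 library gave 0 to 5 higher and 0 to 1 lower. For the combination against semaglutide it gave 0 higher and 0 to 1 lower. Fewer samples enter where libraries are left out, and the cause of the other shifts was not tested. The replicate block moved no other of these counts by more than 1.5 times. At the estimated depth, values under an FPKM of 1, such as Psmb9, are limited by few fragments.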
